A study of Mus musculus with 10 samples.

Results

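The 9 transcription factors described here set the identity of the intestinal epithelium and its position along the gut. They are Gata4, Gata6, Pdx1, Onecut2, Cdx1, Cdx2, Hnf4a, Hnf4g and Klf5. Each was found by its symbol in the probe set annotation, each had 1 probe set, and together they are 9 of the 22180 genes measured. RNA came from a 3 cm piece of the middle of the small intestine (jejunum) of female mice aged 10 to 12 weeks, on 1 Affymetrix whole-transcript array per sample. The 5 knockout samples, numbered 1 to 5, had the genotype Pcyt1aLoxP/LoxP;VilCreERT2, in which a tamoxifen-inducible Cre recombinase is driven by the promoter of villin, a gene of the gut epithelium. The 5 control samples, numbered 6 to 10, were Pcyt1aLoxP/LoxP without Cre. Both groups were given tamoxifen for 5 days and high fat food for 4 days, and then fasted overnight.

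Pcyt1a codes for the rate-limiting enzyme of the CDP-choline route to phosphatidylcholine. Its log2 intensity averaged 7.46 ± 0.25 on knockout arrays and 9.39 ± 0.17 on control arrays (SD, n = 5 per group), with every knockout between 7.14 and 7.80 and every control between 9.18 and 9.55. The controls' source labels name an intestine that lacks this synthesis, against their titles, their genotype and this reading. The series text mentions re-feeding, whereas each sample label gives the fasted state. Whether each sample is a separate mouse is not stated in the labels, and the p-values therefore cover only the spread between these samples, which may be technical. The 11 enterocyte markers measured lay between 9.5 and 13.62 on the log2 scale, against array medians of 5.77 to 5.89 over all genes. Of 10 stomach markers 7 lay below the array median on every array, as did 5 of 7 pancreatic acinar markers and 4 of 7 colon markers.

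These factors act as layers. CDX2 and CDX1 are homeobox proteins that specify intestinal rather than stomach epithelium, and HNF4A and HNF4G are nuclear receptors that drive the absorptive program of the villus. GATA4 and GATA6 are zinc finger proteins. GATA4 is present in duodenum and jejunum, where it keeps proximal genes on and distal genes off, and is absent from the ileum, while GATA6 is present along the whole small intestine. PDX1 is the homeobox factor of pancreas, antrum and duodenum, ONECUT2 is a cut homeobox factor of liver, pancreas and the proximal small intestine, and KLF5 is a zinc finger factor of dividing crypt cells.

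None of the 9 factors passed the test between knockouts and controls. By limma, 0 of 9 had an adjusted p under 0.05 over all genes, against a background of 0.0271% of genes called (6 of 22180). At an unadjusted p under 0.05 the count was also 0 of 9, against 13.9% of all genes. The groups overlapped for all 9, whereas they did not overlap for 2.6% of all genes. The log2 fold changes, knockout minus control, lay between -0.40 and 0.14, with a median of -0.09 against -0.01 for all genes. A p that misses the threshold does not show equal levels, and the intervals given with each factor bound the difference. In bulk tissue, fewer cells of a type and less RNA per cell cannot be told apart.

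**Figure D1:**
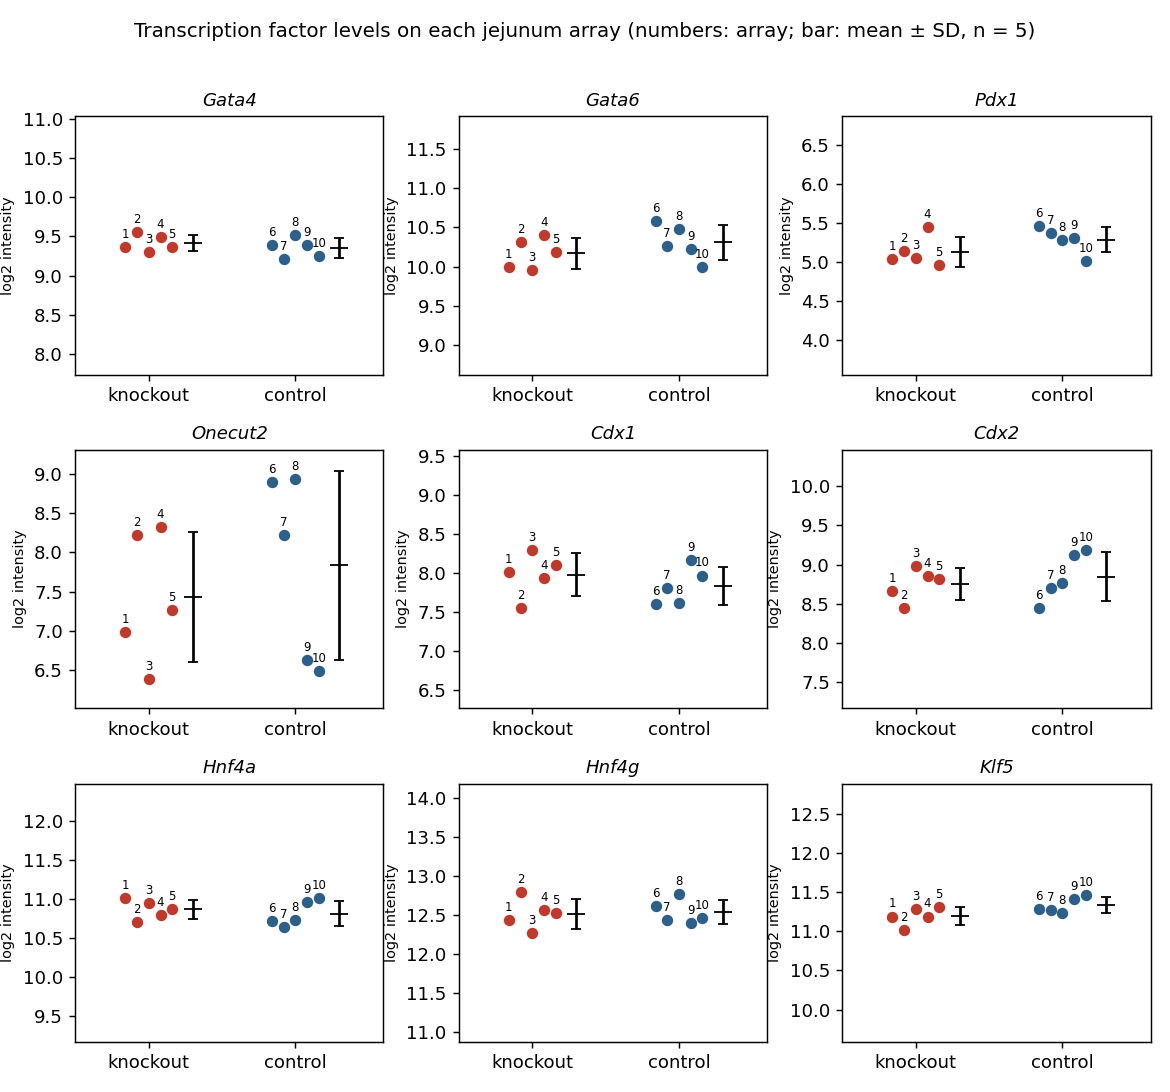
Log2 intensity of each factor on every array, with knockouts on the left and controls on the right of each panel, over a vertical span that is the same in all panels. Points are arrays with their numbers, and bars are mean ± SD (n = 5). Onecut2 spreads from 6.38 to 8.94, while Gata4 stays between 9.21 and 9.56.

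Gata4 was among the steadiest genes on these arrays. It read 9.37, 9.56, 9.30, 9.49 and 9.37 in knockouts 1 to 5, against 9.39, 9.21, 9.52, 9.39 and 9.25 in controls 6 to 10. Of the 5 knockouts 4 fell inside the control range. Knockout minus control, the log2 fold change was 0.07 (SE 0.09, limma adjusted p = 0.785; two-sided exact permutation p = 0.389). Its 95% interval of -0.13 to 0.26 corresponds to 0.915 to 1.20 times the control level. The SD of Gata4 over the 10 arrays, 0.11, was higher than that of 9.45% of all genes.

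Gata6 read 9.99, 10.31, 9.96, 10.40 and 10.18 in knockouts, against 10.58, 10.26, 10.48, 10.23 and 10.00 in controls. The 2 highest arrays were controls 6 and 8, and the 2 lowest were knockouts 3 and 1, but control 10 lay beside these. Here the log2 fold change was -0.14 (SE 0.13, limma adjusted p = 0.663; exact permutation p = 0.317), with a 95% interval of -0.42 to 0.14.

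Pdx1 was dim, and lay below the array median on all 10 arrays. It read 5.04, 5.14, 5.05, 5.45 and 4.97 in knockouts, against 5.46, 5.37, 5.29, 5.31 and 5.02 in controls. Knockout 4 read like the upper controls, and control 10 like the lower knockouts. For Pdx1 the log2 fold change was -0.16 (SE 0.11, limma adjusted p = 0.567; exact permutation p = 0.198), with a 95% interval of -0.41 to 0.09. At such an intensity, a fold change on the array can understate one in RNA, and no detection values were used here.

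Onecut2 varied most of the 9 factors, and it did so within both groups. It read 6.98, 8.22, 6.38, 8.33 and 7.27 in knockouts, against 8.90, 8.22, 8.94, 6.63 and 6.48 in controls. The 10 arrays spanned 2.56 on the log2 scale, a 5.90-fold range, and its SD of 1.00 exceeded that of 99.5% of all genes. Knockouts 2 and 4 with controls 6, 7 and 8 lay at 8.22 or above, knockouts 1, 3 and 5 with controls 9 and 10 lay at 7.27 or below, and no array lay between. The log2 fold change was -0.40 (SE 0.54, limma adjusted p = 0.787; exact permutation p = 0.532). Single arrays moved it, between -0.74 without control 10 and -0.12 without control 8, and it was -0.16 with the Paneth cell score and -0.15 with the pan-epithelial score as a covariate. Its 95% interval of -1.58 to 0.78, or 0.336 to 1.72 times the control level, was the widest of the 9, so these arrays do not fix the sign of the difference. Without knockout 2 and controls 6 and 8, the arrays lowest in Paneth cell markers, the log2 fold change was 0.13 (SE 0.51, limma adjusted p = 0.936).

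Cdx1 read 8.01, 7.55, 8.30, 7.94 and 8.10 in knockouts, against 7.61, 7.81, 7.62, 8.17 and 7.97 in controls. Knockout 2 was the lowest and knockout 3 the highest of all 10 arrays. Between the groups the log2 fold change was 0.14 (SE 0.15, limma adjusted p = 0.708; exact permutation p = 0.405), with a 95% interval of -0.18 to 0.47. Leaving out single arrays gave 0.064 (without knockout 3) to 0.25 (without knockout 2). Cdx2 read 8.66, 8.45, 8.98, 8.85 and 8.82 in knockouts, against 8.44, 8.70, 8.77, 9.12 and 9.19 in controls. All 5 knockouts lay inside the control range. For Cdx2 the log2 fold change was -0.09 (SE 0.15, limma adjusted p = 0.830; exact permutation p = 0.603), with a 95% interval of -0.42 to 0.24, and single arrays left out gave -0.19 (without control 6) to -0.0055 (without control 10).

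Hnf4a read 11.01, 10.70, 10.95, 10.80 and 10.87 in knockouts, against 10.72, 10.64, 10.73, 10.96 and 11.01 in controls. The knockouts again all lay inside the control range. For Hnf4a the log2 fold change was 0.05 (SE 0.10, limma adjusted p = 0.850; exact permutation p = 0.595), and the 95% interval of -0.16 to 0.27 corresponds to 0.893 to 1.21 times the control level. With single arrays left out it lay between 0.011 (without control 7) and 0.10 (without control 10). Hnf4g, the paralog that acts beside it in the villus, read 12.43, 12.79, 12.27, 12.56 and 12.53 in knockouts, against 12.62, 12.43, 12.77, 12.40 and 12.46 in controls. Its log2 fold change was -0.02 (SE 0.11, limma adjusted p = 0.957; exact permutation p = 0.857), with a 95% interval of -0.26 to 0.22. This small value turned positive, by up to 0.0415, when knockout 1, knockout 3, control 6 or control 8 was left out.

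Klf5 showed the largest difference relative to its spread, 1.31 within-group SDs. It read 11.19, 11.02, 11.28, 11.19 and 11.31 in knockouts, against 11.29, 11.27, 11.24, 11.42 and 11.46 in controls. Of the 5 knockouts 3 lay below every control, while knockouts 3 and 5 lay inside the control range. The log2 fold change was -0.14 (SE 0.09, limma adjusted p = 0.510; exact permutation p = 0.0714), with a 95% interval of -0.33 to 0.05. The smallest p that 5 arrays against 5 can give in this exact test is 0.00794. When the pan-epithelial score of each array was subtracted, the Klf5 values did not overlap, with knockouts at 11.1 to 11.25 and controls at 11.28 to 11.42. After the same subtraction the groups did not overlap for 2.14% of all genes (475 of 22180), and the Klf5 difference of -0.17 did not pass the test (SE 0.10, limma adjusted p = 0.581). In the values as deposited, and in every other alternative where overlap was counted, the Klf5 groups overlapped.

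**Figure D2:**
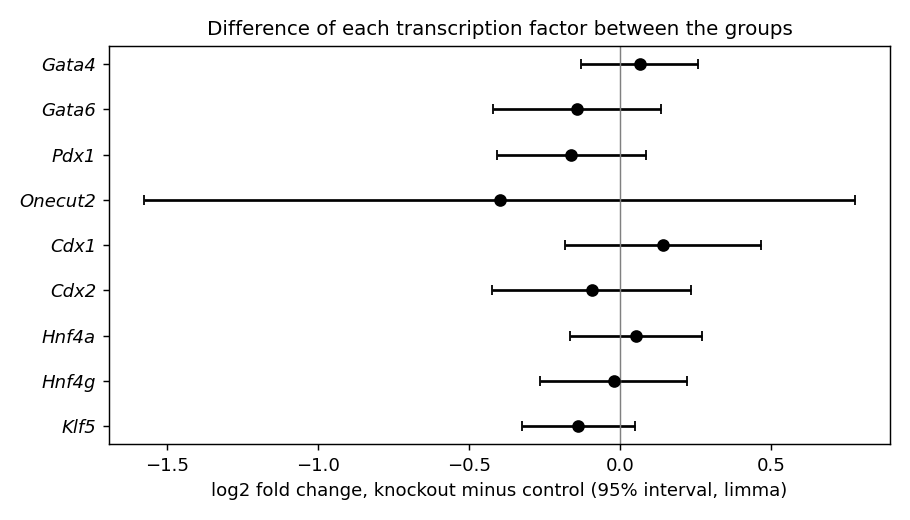
Log2 fold change of each factor, knockout minus control, as a point with its 95% interval from limma (n = 5 arrays per group). All 9 intervals include 0, and that of Onecut2 is the widest.

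Across the 10 arrays the factors varied together in opposed sets. Onecut2 and Gata6 were high on the same arrays, and on those arrays Hnf4a and Cdx1 were low. Over 36 pairs of factors and 81 pairs of a factor with a marker score, 117 relations in all, permutation p-values were adjusted together. Of the 36 pairs, 10 had an adjusted p under 0.05, 6 with positive and 4 with negative Pearson r. By Spearman's rho 5 pairs did. All values were read in the same extracts and share their tissue make-up, and no array lay between 7.27 and 8.22 for Onecut2. Each side of that gap holds 5 arrays, and the relations were not tested within a side. Within the genotypes, which hold 5 arrays each and both have arrays on either side, r is given for Onecut2, Gata4 and Klf5 as a description.

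Onecut2 correlated with Gata6 at r = 0.91 (rho = 0.92, permutation p = 3.6e-04 and 3.1e-04, adjusted 0.0114 and 0.00907). Without the 2 arrays farthest from the Gata6 median r was 0.86, and after each group's mean was subtracted it was 0.91. Within the genotypes r was 0.96 among knockouts and 0.89 among controls for Gata6, -0.85 and -0.90 for Hnf4a, and -0.81 and -0.93 for Cdx1. As a description of the whole table, 0.591% of genes had an r with Onecut2 at least as far from 0. Onecut2 ran against Hnf4a at r = -0.88 (rho = -0.71, permutation p = 0.00303 and 0.0259, adjusted 0.0197 and 0.0805). Without the 2 arrays farthest from the Onecut2 median that r was -0.84, and farthest is meant in the same way, from the median of the factor, for each r that follows. It also ran against Cdx1 at r = -0.86 (rho = -0.79, permutation p = 0.00235 and 0.00881, adjusted 0.0176 and 0.0448), and without the 2 farthest arrays at -0.86. For Hnf4a and Cdx1, 0.933% and 1.49% of genes lay at least as far from 0. Hnf4g went with Onecut2 (r = 0.78, rho = 0.78, permutation p = 0.00828 and 0.00949, adjusted 0.0404 and 0.0463; r = 0.70 without the 2 farthest arrays), whereas Hnf4a with Hnf4g had r = -0.62 (rho = -0.54, permutation p = 0.0565 and 0.107, adjusted 0.118 and 0.208).

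Other pairs were Cdx1 against Hnf4g at r = -0.87 (rho = -0.85, permutation p = 9.5e-04 and 0.0028, adjusted 0.0130 and 0.0310) and Gata6 with Pdx1 at r = 0.80 (rho = 0.75, permutation p = 0.00761 and 0.0176, adjusted 0.0397 and 0.0708). Without the 2 arrays farthest from the median of the first gene, they were -0.74 and 0.72. Gata4 varied with Hnf4g at r = 0.78 (rho = 0.72, permutation p = 0.0094 and 0.0231, adjusted 0.0415 and 0.0791) and Cdx2 with Klf5 at r = 0.76 (rho = 0.59, permutation p = 0.0101 and 0.0774, adjusted 0.0420 and 0.165). Without the 2 farthest arrays these were 0.73 and 0.88. The 2 CDX genes had r = 0.73 with each other (rho = 0.70, permutation p = 0.0176 and 0.0304, adjusted 0.0619 and 0.0860; 0.64 without the 2 farthest arrays). The 2 GATA genes had r = 0.55 (rho = 0.63, permutation p = 0.101 and 0.0552, adjusted 0.185 and 0.132; 0.75 without the 2 farthest arrays).

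**Figure D3:**
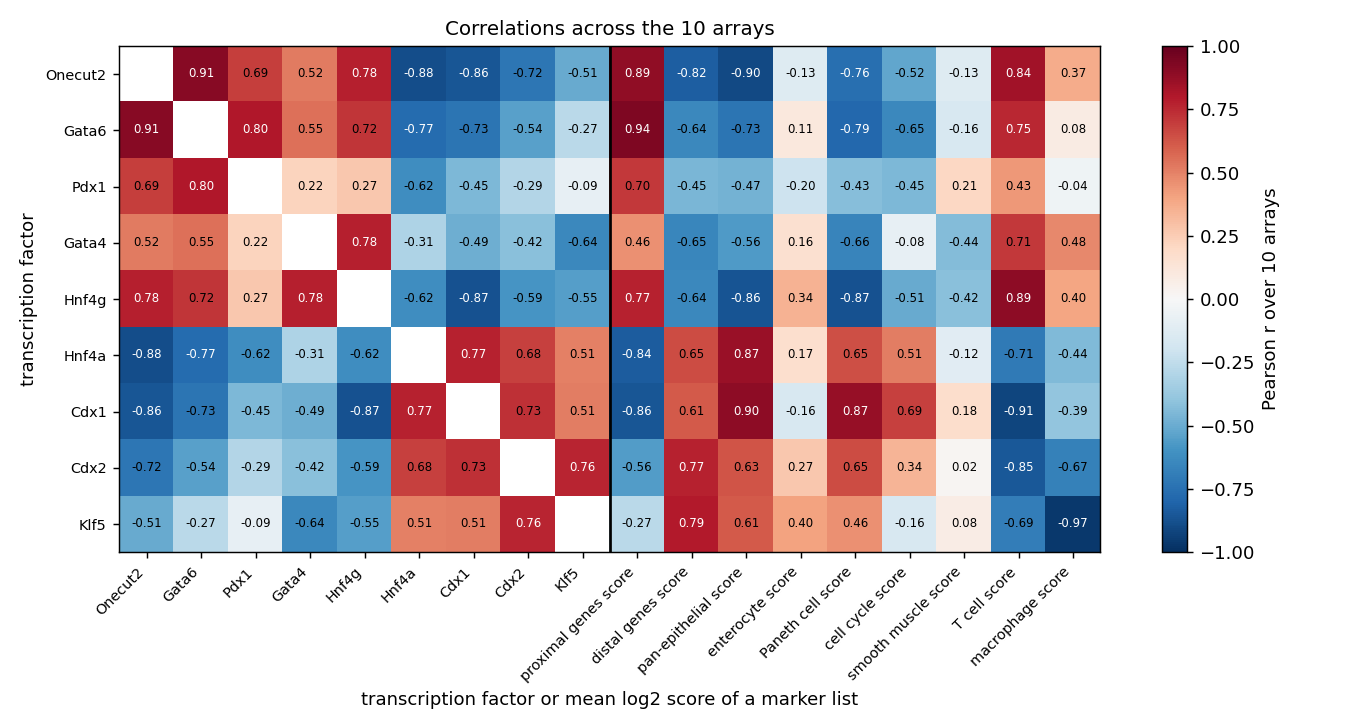
Pearson r over the 10 arrays for each pair of factors (left of the line) and for each factor with the mean log2 score of a marker list (right of the line), from -1 in blue to 1 in red. Onecut2 and Gata6 at 0.91 share a red block with Pdx1, Gata4 and Hnf4g, set against Hnf4a, Cdx1, Cdx2 and Klf5.

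The arrays that were high in Onecut2 and Gata6 were also high in the mean score of genes of the upper small intestine. The mean score of 22 proximal genes correlated with Gata6 at r = 0.94 (rho = 0.95, permutation p = 1.1e-04 for both, adjusted 0.00644 and 0.00819; 0.88 without the 2 farthest arrays) and with Onecut2 at r = 0.89 (rho = 0.85, permutation p = 8.8e-04 and 0.00296, adjusted 0.0130 and 0.0310; 0.88 without the 2 farthest arrays). The score of 17 distal genes ran against Onecut2 at r = -0.82 (rho = -0.85, permutation p = 0.00352 and 0.00304, adjusted 0.0217 and 0.0310). That r was -0.73 without the 2 farthest arrays, and -0.96 after subtraction of each group's mean. Within the genotypes Onecut2 had r = 0.91 among knockouts and 0.95 among controls with the proximal score, and -0.90 and -0.99 with the distal score. The distal score went with Klf5 at r = 0.79 (rho = 0.81, permutation p = 0.00488 and 0.00699, adjusted 0.0272 and 0.0443; 0.81 without the 2 farthest arrays). It went with Cdx2 at r = 0.77 (rho = 0.61, permutation p = 0.00951 and 0.0654, adjusted 0.0415 and 0.147; 0.68 without the 2 farthest arrays). Gata4, the factor known for keeping the proximal program, had r = 0.46 with the proximal score (rho = 0.55, permutation p = 0.186 and 0.101, adjusted 0.279 and 0.201; 0.58 without the 2 farthest arrays). Within the genotypes that r was 0.92 among knockouts and 0.51 among controls, and it was 0.70 after subtraction of each group's mean.

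The 3 proximal and 3 distal genes with the largest SD over the 10 arrays are given in single values. Not every gene of the 2 lists followed Onecut2. Of proximal genes named below, r with Onecut2 was 0.33 for Gip, 0.38 for Lct, 0.27 for Slc11a2, 0.76 for Fabp1 and -0.31 for Npc1l1. Of distal genes it was 0.01 for Cubn, 0.01 for Tff3, -0.09 for Hoxd8 and -0.56 for Fabp6. These r are a description and were not tested. Slc46a1, the proton-coupled folate transporter of the upper gut, read 8.71, 11.44, 8.67, 11.13 and 9.96 in knockouts, against 11.94, 10.81, 11.53, 9.45 and 9.02 in controls. S100g, the vitamin D dependent calcium-binding protein calbindin of duodenal enterocytes, read 5.95, 8.27, 6.41, 8.10 and 7.13 in knockouts, against 9.80, 7.65, 9.79, 7.62 and 6.84 in controls. Slc46a1 was highest on the arrays that were high in Onecut2, namely knockouts 2 and 4 and controls 6, 7 and 8. Nts, which encodes the distal gut peptide neurotensin, read 8.28, 7.66, 8.50, 7.19 and 8.85 in knockouts, against 7.57, 8.36, 7.84, 10.13 and 9.99 in controls. Controls 9 and 10 were its highest arrays, and both were low in Onecut2. Fabp6, an ileal bile acid binding protein, read 5.02, 5.00, 7.48, 4.92 and 4.41 in knockouts, against 5.06, 4.60, 5.01, 5.33 and 5.73 in controls. It stood out on knockout 3, the array lowest in Onecut2, and controls 10 and 9 came next, while knockout 5, which was also low in Onecut2, was its lowest array. Apart from knockout 3, Fabp6 lay at 5.73 or below, under the array medians of 5.77 to 5.89. The order of those dim values can therefore be noise. Slc10a2, the ileal bile acid transporter, lay between 4.94 and 5.92 in knockouts and between 4.22 and 7.27 in controls, with its highest value on control 10. On the other arrays it too was near or below the array medians. Cyp3a11, a cytochrome P450 of the upper gut, was highest on knockout 2 and control 6, at 10.23 on both, and lowest on knockouts 1 and 3. The labels give the same position for all samples, and the part of position within the piece in these values was not tested.

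**Figure D4:**
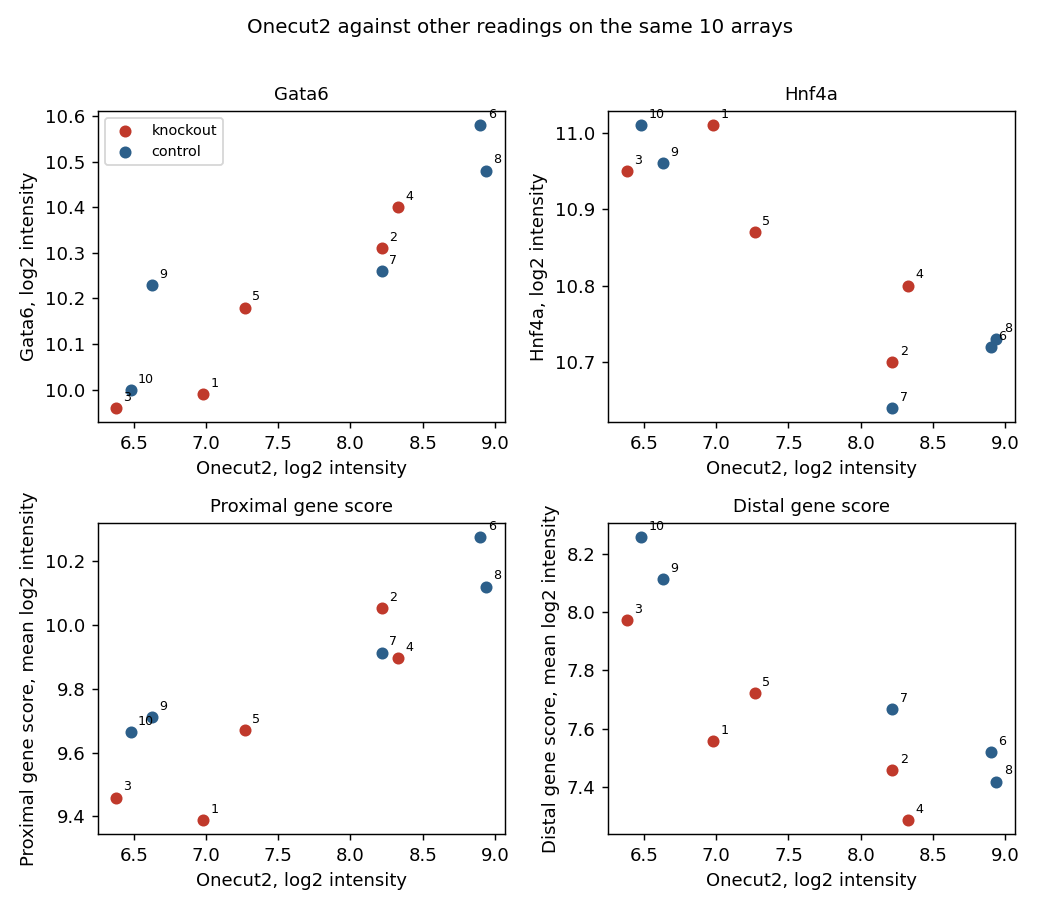
Onecut2 log2 intensity on the horizontal axis against Gata6, Hnf4a and the mean log2 scores of 22 proximal and 17 distal small intestine genes on the same arrays, with knockouts in red and controls in blue, numbered. Gata6 (r = 0.91) and the proximal score (r = 0.89) rise with Onecut2, while Hnf4a (r = -0.88) and the distal score (r = -0.82) fall, in both groups.

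Markers of other cells varied over the same arrays. The T cell score, of 8 markers that also include those of lymphocytes within the epithelium, ranged from 6.35 to 7.87 in knockouts and from 6.59 to 7.63 in controls. It had r = 0.84 with Onecut2 (rho = 0.85, permutation p = 0.00217 and 0.00282, adjusted 0.0176 and 0.0310; 0.73 without the 2 farthest arrays) and r = -0.91 with Cdx1 (rho = -0.88, permutation p = 3.9e-04 and 0.0015, adjusted 0.0114 and 0.0310; -0.83 without the 2 farthest arrays). The pan-epithelial score, of 12 markers, ranged from 10.78 to 11.09 in knockouts and from 10.75 to 11.07 in controls, with r = -0.90 to Onecut2 (rho = -0.85, permutation p = 0.00133 and 0.00318, adjusted 0.0130 and 0.0310; -0.87 without the 2 farthest arrays). With Cdx1 it had r = 0.90 (rho = 0.87, permutation p = 6.2e-04 and 0.00191, adjusted 0.0130 and 0.0310; 0.83 without the 2 farthest arrays). The Paneth cell score, of 8 markers, ranged from 9.49 to 11.99 in knockouts and from 9.51 to 11.61 in controls, with r = -0.87 to Hnf4g (rho = -0.94, permutation p = 0.00131 and 2.5e-04, adjusted 0.0130 and 0.00907; -0.81 without the 2 farthest arrays). The score of 10 smooth muscle markers ranged from 6.87 to 8.36 in knockouts and from 6.44 to 10.45 in controls. Its r with Onecut2 was -0.13 (rho = -0.21, permutation p = 0.727 and 0.567, adjusted 0.780 and 0.620; -0.47 without the 2 farthest arrays). The score of 15 cell cycle markers ranged from 7.47 to 8.42 in knockouts and from 6.68 to 7.53 in controls, with 4 of 5 knockouts above every control. All 15 were positive with an unadjusted p under 0.05, against 8.29% of all genes, with a median log2 fold change of 0.81, and 0 of 15 passed the adjusted test by limma. With Cdx1 the score had r = 0.69 (rho = 0.78, permutation p = 0.0289 and 0.011, adjusted 0.0806 and 0.0495; 0.63 without the 2 farthest arrays), and with Gata6 r = -0.65 (rho = -0.81, permutation p = 0.0443 and 0.00758, adjusted 0.100 and 0.0443; -0.28 without the 2 farthest arrays). With Klf5, the factor of dividing crypt cells, it had r = -0.16 (rho = -0.01, permutation p = 0.674 and 0.979, adjusted 0.737 and 0.979; -0.40 without the 2 farthest arrays). Within the genotypes that r was positive, at 0.67 among knockouts and 0.40 among controls, and it was 0.55 after subtraction of each group's mean. The part of these cells in the factors' values was not tested.

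Klf5 had the r farthest from 0 among the 81 pairs of a factor with a score. It ran against the score of 9 macrophage markers at r = -0.97 (rho = -0.95, permutation p = 2e-05 and 1.4e-04, adjusted 0.00234 and 0.00819), with -0.91 when the 2 farthest arrays were left out. The macrophage score averaged 7.13 ± 0.25 on knockout arrays and 6.79 ± 0.24 on control arrays (SD, n = 5 per group). The relation had the same sign within each group, at -0.96 among the 5 knockouts and -0.94 among the 5 controls, which are too few for a test of their own.

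Promoter sequence was at hand for Hnf4a, Cdx2 and Pdx1, from RefSeq on GRCm38.p6, each window running from 250 bases before a transcript start to 50 after it. The windows of Hnf4a are shown because it ran against Onecut2 over the arrays, and that of Cdx2 as the other factor with a negative r to Onecut2 whose window held any of the letters searched. For Cdx2 no relation to Onecut2 or Gata6 passed. Its r with Onecut2 was -0.72 (rho = -0.63, permutation p = 0.0211 and 0.0581, adjusted 0.0668 and 0.136; -0.58 without the 2 farthest arrays). With Gata6 it was -0.54 (rho = -0.49, permutation p = 0.107 and 0.155, adjusted 0.193 and 0.249; -0.30 without the 2 farthest arrays). Hnf4a lies on chromosome 2 at 163506811 to 163572907 and has an upstream and a downstream start, and its 1 probe set was not assigned to either here. Cdx2 lies on chromosome 5 at 147300900 to 147307249. Capitals mark the letters searched on both strands. AGATAA stands for the core of zinc finger sites of the GATA family, ATCAAT stands for the core of ONECUT sites, and GTTAAT stands for a part of the HNF1 site. Searched as well were CAAAGTCC for a part of the HNF4 site, and TTTATG for the core of CDX sites.
Hnf4a upstream start, chr2:163506607-163506906, plus strand: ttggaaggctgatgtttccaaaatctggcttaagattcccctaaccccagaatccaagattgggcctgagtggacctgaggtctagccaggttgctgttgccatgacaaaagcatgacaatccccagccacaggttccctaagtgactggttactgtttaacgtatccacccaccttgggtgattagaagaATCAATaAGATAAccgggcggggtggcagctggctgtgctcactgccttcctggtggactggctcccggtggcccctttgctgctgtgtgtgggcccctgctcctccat
Hnf4a downstream start, chr2:163546905-163547204, plus strand: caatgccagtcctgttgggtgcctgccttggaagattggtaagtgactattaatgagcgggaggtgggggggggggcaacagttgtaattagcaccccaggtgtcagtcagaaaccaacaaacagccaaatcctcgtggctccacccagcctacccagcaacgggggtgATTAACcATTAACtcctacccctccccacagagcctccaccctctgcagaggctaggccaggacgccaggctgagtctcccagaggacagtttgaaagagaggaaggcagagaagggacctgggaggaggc
Cdx2, chr5:147307200-147307499, minus strand: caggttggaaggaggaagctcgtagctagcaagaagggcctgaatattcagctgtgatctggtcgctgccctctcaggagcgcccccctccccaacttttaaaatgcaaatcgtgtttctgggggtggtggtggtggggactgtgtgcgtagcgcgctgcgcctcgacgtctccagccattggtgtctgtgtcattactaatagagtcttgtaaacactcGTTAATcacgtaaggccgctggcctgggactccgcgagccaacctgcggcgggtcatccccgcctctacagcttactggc

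The upstream Hnf4a window held ATCAAT and AGATAA with 1 base between them, at positions 192 and 199 of the window. The downstream window held ATTAAC, the reverse complement of GTTAAT, at positions 170 and 177, and the Cdx2 window held GTTAAT at position 221. Of all 32851 promoter windows in the table, 7.54% held the ONECUT letters, 11.2% the GATA letters, 7.1% the HNF1 letters, 1.42% the HNF4 letters and 11.9% the CDX letters on either strand. The Pdx1 window held none of these letters. A match describes the sequence and is not a bound site.

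Position genes of the small intestine, genes linked to CDX2 or HNF4, other gut transcription factors and relatives of the factors gave no call either. By limma, 0 of 22 proximal genes passed over all genes, and the median log2 fold change was -0.20, against -0.01 for all genes. An unadjusted p under 0.05 was reached by 5 of the 22, all negative. Over all genes that share was 13.9%, made up of 5.56% negative (1234 of 22180) and 8.29% positive (1838 of 22180), and these shares are the background for the counts of the lists that follow. Gip, the incretin of upper gut K cells, was at -0.82 (SE 0.14, adjusted p = 0.0728) and lactase (Lct) at -0.45 (SE 0.13, adjusted p = 0.182). Gip is also an enteroendocrine marker, as are 2 other proximal genes, Sct and Cck. Sct, another of the 5, was at -0.26 (SE 0.11, adjusted p = 0.335), and Cck was at -0.44 (SE 0.22, adjusted p = 0.411). Most other markers of those cells lay on the same side. The score of 12 enteroendocrine markers, with Gip, Sct and Cck included, did not overlap, at 6.98 to 7.40 in knockouts and 7.46 to 7.73 in controls. Of the 12, 11 were negative, against 11792 of 22180 genes, and 5 had an unadjusted p under 0.05. Sst, which encodes somatostatin, fell by 1.20 (SE 0.10, adjusted p = 3.48e-04). Chga was at -0.10 (adjusted p = 0.774), Chgb at -0.20 (adjusted p = 0.524) and Neurod1, the positive one, at 0.03 (adjusted p = 0.961). The part of these cells in the Gip, Sct and Cck values, and through them in the proximal counts and score, was not tested. On the other side the iron importer Slc11a2 was at 0.18 (SE 0.10, adjusted p = 0.441) and the fatty acid binding protein Fabp1 at 0.16 (SE 0.11, adjusted p = 0.567). The proximal score averaged 9.69 ± 0.28 on knockout arrays and 9.94 ± 0.26 on control arrays (SD, n = 5 per group). Of 17 distal genes 0 passed and 2 had an unadjusted p under 0.05, both negative, with a median of -0.13. These were the cobalamin receptor subunit Cubn at -0.91 (SE 0.24, adjusted p = 0.148) and the goblet cell trefoil factor Tff3 at -0.43 (SE 0.11, adjusted p = 0.149). The ileal bile acid binding protein Fabp6 was at 0.22 (SE 0.47, adjusted p = 0.874), a value that 1 array carried, since without knockout 3 it was -0.31. The homeobox gene Hoxd8 was at 0.15 (SE 0.10, adjusted p = 0.545). The distal score averaged 7.60 ± 0.26 on knockout arrays and 7.80 ± 0.37 on control arrays (SD, n = 5 per group).

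Among 16 genes linked to CDX2 0 passed by limma, 2 had an unadjusted p under 0.05 and the median was -0.08. Besides Lct, the goblet mucin Muc2 was at -0.28 (SE 0.10, adjusted p = 0.256), while the homeobox gene Isx was at 0.16 (SE 0.12, adjusted p = 0.585) and the cadherin Cdh17 at 0.03 (SE 0.08, adjusted p = 0.908). Muc2 and Tff3 are also goblet cell markers. Of 10 such markers 8 were negative, against 11792 of 22180 genes, and 4 had an unadjusted p under 0.05, all negative. Agr2, at 0.14, and Spink4, at 0.43, were positive. The part of goblet cells in the Muc2 and Tff3 values was not tested. Among 21 genes linked to HNF4 0 passed, 3 had an unadjusted p under 0.05 and the median was -0.09. The apolipoprotein Apoc3 was at -0.43 (SE 0.10, adjusted p = 0.129) and the cholesterol transporter Npc1l1 at -0.34 (SE 0.12, adjusted p = 0.256). The fatty acid oxidation enzyme Cpt1a was at 0.25 (SE 0.10, adjusted p = 0.287) and the lipoprotein assembly factor Mttp at 0.13 (SE 0.08, adjusted p = 0.476).

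Of 26 other transcription factors of the gut epithelium 0 passed by limma and 2 had an unadjusted p under 0.05, with a median of -0.05. The crypt stem cell factor Ascl2 was at 0.50 (SE 0.18, adjusted p = 0.238). Of 11 crypt stem cell markers, Ascl2 among them, 10 were positive, against 10388 of 22180 genes, and 4 had an unadjusted p under 0.05. Lgr5 was the negative one, at -0.42 (SE 0.19, adjusted p = 0.362), and Rgmb and Tnfrsf19 were close to 0, at 0.02 each. The part of crypt cells in the Ascl2 value was not tested. On the same side was the bile acid receptor Nr1h4, at 0.21 (SE 0.11, adjusted p = 0.440), against Maf at -0.29 (SE 0.10, adjusted p = 0.233) and Ppara at -0.28 (SE 0.16, adjusted p = 0.475). Of 14 paralogs of the factors 0 passed, 2 had an unadjusted p under 0.05 and the median was -0.19. Klf13 was at -0.33 (SE 0.09, adjusted p = 0.177) and Cdx4 was at -0.35 (SE 0.12, adjusted p = 0.228). Onecut1 was at 0.13 (SE 0.11, adjusted p = 0.636) and Klf3 at 0.02 (SE 0.09, adjusted p = 0.937). Of the genes named from these lists, the groups did not overlap for Gip, Muc2, Apoc3 and Klf13, all lower in knockouts. These were named for their small p, which follows the same separation, so they cannot be set against all genes. In the whole lists the groups did not overlap for 1 of 22 proximal, 0 of 17 distal, 1 of 16 CDX2-linked and 1 of 21 HNF4-linked genes. The counts were 0 of 26 for the other transcription factors and 1 of 14 for the paralogs, against 2.6% of all genes in either direction.

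The genes most like each factor were taken by Pearson r over the 10 arrays after each group's mean was subtracted, among 10338 genes with a mean log2 intensity of at least 6. For Onecut2 they were Nadk2 (0.990), Prdm16 (0.982) and Slc16a6 (0.981), and for Gata6 they were Slc6a3 (0.982), Tnfrsf23 (0.977) and Upb1 (0.976). For Hnf4g they were Azi2 (0.991), Acbd5 (0.986) and Slc35g1 (0.982), and for Gata4 they were Cmtm6 (0.979), Rbbp9 (0.974) and Ikzf3 (0.964). For Cdx1 they were Exph5 (0.978), Zfp746 (0.976) and 2210016L21Rik (0.973), and for Cdx2 Usp22 (0.968), Igbp1 (0.957) and Cdk10 (0.953). For Hnf4a they were the cholesterol synthesis enzyme Hsd17b7 (0.963), Dpagt1 (0.950) and Mexis (0.944), for Klf5 Strn4 (0.961), Vsig10 (0.956) and Ctdsp1 (0.955), and for Pdx1 B3glct (0.943), Glrx5 (0.937) and Tmem14c (0.919). These are the highest of many correlations over few arrays and are given as a description. Without the subtraction, r over the 10 arrays was 0.23 for B3glct and 0.07 for Glrx5 with Pdx1, 0.45 for Vsig10 with Klf5, and 0.56 for 2210016L21Rik with Cdx1. For the rest it lay between 0.69 (Igbp1 with Cdx2) and 0.98 (Prdm16 with Onecut2).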

How the data were processed

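Per the submitters' processing notes, the authors ran RMA (Affymetrix Expression Console, version 1.4.1.46) and deposited the resulting intensities on the linear scale. The genome build behind the probe sets is not given in the sources used here. Log2 was taken first. Of 34472 probe sets, 23521 with 1 gene symbol were kept, and the brightest of each gene gave 22180 genes. Knockouts and controls were compared over all genes with limma 3.58.1 in R 4.3.3 (lmFit, eBayes, two-sided, Benjamini-Hochberg, called under 0.05), and single factors also by exact permutation of the 10 arrays. Correlations used 100000 permutations. List scores are mean log2 values of the measured members. The number of arrays limits the precision. The factors and lists were chosen with earlier results of these data known. The genes named were all 9 factors, the 2 list members with the smallest p in each direction, the 3 genes most like each factor, and Pcyt1a. Sst and the other single enteroendocrine, goblet and crypt markers were named outside this rule, after their values were seen. The position genes with the largest SD were chosen after their values were seen. Alternatives covered scaling, filters, variance models, tissue scores as covariates and arrays left out. The fit was tested on simulated data in which each gene was drawn independently. That leaves out the correlation between genes on these arrays.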

Additional observations from a re-analysis of the deposited data

How the results depend on the processing

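The count of factors called was 0 under every alternative tried, and the smallest adjusted p of any factor was 0.330, for Klf5 with the pan-epithelial score as a covariate. With a mean log2 intensity of at least 6 required, 8 factors were tested, since Pdx1 was too dim. The count of factors whose groups did not overlap was 1 of 9 (Klf5) after subtraction of the pan-epithelial score, where 2.14% of all genes did not overlap. The log2 fold change of Onecut2 turned to 0.13 without the 3 arrays lowest in Paneth markers. That of Hnf4g turned to 0.006 with median centring, 0.027 with the Paneth covariate, 0.0197 with the pan-epithelial covariate and 0.0175 without the 3 arrays lowest in Paneth markers, and to 0.0323 with Onecut2 as a covariate, chosen after seeing the data. It lay between -0.0885 and 0.0415 with single arrays left out. The count of genes called over the whole table, 6, was 2 with median centring, 2 with a further quantile normalisation, 10 under a trended, robust variance, 347 with the Paneth covariate, 26 with the pan-epithelial covariate and 3 after subtraction of that score. It was 2 without the 3 arrays highest in smooth muscle, 69 without the 3 lowest in Paneth markers, 33 with the Onecut2 covariate, and 2 to 452 with single arrays left out, with 452 without knockout 2. The cause was not tested. No paired analysis was possible because the titles number knockouts 1 to 5 and controls 6 to 10. Other probe sets could not be tried, since each factor has 1.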

Other observations

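The first principal component over all genes (26.9% of the variance) had r = 0.83 with Gata6, 0.74 with Onecut2, 0.76 with Hnf4g and -0.83 with Cdx1 over the 10 arrays. The second (17.5%) had r = -0.95 with Klf5 and -0.72 with Cdx2. The third (17.2%) had r between -0.46 and 0.42 with all 9 factors. The median intensity of the array had r between -0.40 and 0.28 with them. These values describe the same arrays and carry no test.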
